A study of Mus musculus with 2 samples.

Results

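The immediate early genes are switched on within minutes when a growth factor, a cytokine or mechanical strain reaches a cell, and the genes of ERK feedback follow them and damp the signal. Here 35 such genes were examined in primary mouse osteoblasts treated with PP1, a drug that blocks c-Src and related tyrosine kinases, or with the vehicle DMSO. They were chosen by name, with earlier results of these data known, so their counts and medians are no independent evidence of a direction. Their probe sets are those that the platform annotation gives to 1 of the 35 genes and to no other gene. This found 68 probe sets for 34 genes, out of 34945 probe sets for 18193 genes in all. A probe set is a group of short probes against 1 transcript. Of the 34 genes, 32 were measured, which means that the gene's brightest probe set stood above a floor signal of 31.7 on at least 1 array. Fosb and Etv4 stayed under the floor on both arrays, and the annotation gives each Etv1 probe set to a second gene as well.

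The cells were the primary osteoblasts, the bone-forming cells, of the calvaria (the skull vault) of CD1 mice aged 7 days. The cells were kept for 24 h in medium with albumin in place of serum. They were then treated for 24 h, with 2 µM PP1 for 1 array and with DMSO for the other. No number of animals or cultures behind an array is given in the sources used here. Each group is 1 array, so no test was possible, no p-value is given, and every value below describes these 2 arrays.

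As background, growth factor receptors and Src family kinases pass signals through Ras, RAF and MEK to the kinases ERK1 and ERK2, which phosphorylate ETS-type partners of the serum response factor (SRF) on DNA. These switch on the genes of the AP-1 and EGR transcription factors, which in turn drive a later wave of targets. Feedback comes from the dual-specificity phosphatases (the DUSP genes), which remove phosphate from MAP kinases, and from Sprouty and Spred proteins, which act on the Ras and RAF steps. In osteoblasts this pathway is known for its part in the response to growth factors and to mechanical load. Transcripts of immediate early genes are short-lived, so a measurement after 24 h shows their standing level and not their first burst.

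The signals are linear, and the PP1 array was multiplied by 1.68, which gave both arrays the same mean after trimming 2% of probe sets at each end. The log2 ratio is PP1 minus DMSO, with signals under the floor set to it. There is no replicate error. As a yardstick only, the log2 ratios of a gene's different probe sets on these 2 arrays had an SD of 0.41 over 4745 genes. It holds no variation between cultures, RNA preparations or hybridizations. This SD was 0.45 among the dimmest of those probe sets, with mean signals up to 118, and 0.37 among the brightest, with mean signals from 366. Directions are relative to the bulk of genes, because the values as deposited were lower on the PP1 array as a whole. Of 10 osteoblast markers listed, 7 were measured, 4 of them above 0 (-2.08 to 0.52, summed signal 37473 with PP1 against 29069 with DMSO). Col1a1, the main bone collagen, was bright, with signals of 9931 with PP1 and 7558 with DMSO. Ibsp, a gene of mature osteoblasts, had 37.7 and 159, and Sp7 had 53.3 and 71.6. Runx2, Bglap and Spp1 had no single-gene probe set here and were not analysed. The cultures were not pure, since all 13 macrophage markers listed were measured. Their summed signal was 18237 with PP1 and 15681 with DMSO, with log2 ratios from -0.76 to 1.11. Fibroblast and periosteum markers were higher with PP1 in 9 of 9 measured genes, with ratios from 0.42 to 1.66 and a summed signal of 17785 with PP1 against 10396 with DMSO. Adipocyte markers were higher in 5 of 5 measured genes (0.24 to 1.32, summed signal 7659 with PP1 against 4191 with DMSO) and skeletal muscle markers in 5 of 6 (-0.29 to 1.43, 1028 against 897). Cartilage markers were lower in 4 of 6 (-1.18 to 0.47, 5405 against 6197). Of 7 endothelial markers, 5 were measured, 3 of them above 0 (-0.04 to 0.77, 241 against 197), and Pecam1 and Emcn were under the floor on both arrays. The 3' over 5' signal of control transcripts, on the log2 scale, was 0.19 with PP1 and 0.70 with DMSO for Gapdh, 1.46 and 1.80 for Pcx, and 0.69 and 0.55 for Actb. The part of cell makeup or RNA quality in the ratios below was not tested, and fewer cells of a type cannot be told apart from less RNA per cell.

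With PP1, 11 of the 32 measured genes were at least 1.5-fold lower, against 7.37% of all 12111 measured genes. These were the phosphatases Dusp5 and Dusp1, the transcription factors Myc, Fosl1, Egr1, Egr2 and Egr3, the immediate early genes Ier2 and Ier5, and the feedback inhibitors Spry1 and Spry4. At least 1.5-fold higher were 3 of the 32, namely Atf3, Dusp7 and Dusp14, against 10.6% of all measured genes. At 2-fold, Dusp5 and Myc were lower, 2 of 32 against 1.55% of all measured genes, and 0 of 32 were higher, against 2.97%. The median log2 ratio of the 32 genes was -0.38, beside 0.01 over all measured genes, with 20 genes below 0 and 12 above. The group medians were lowest for the EGR genes, and the AP-1 and DUSP groups each had members on both sides of 0.

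Scaling sets where 0 lies. As deposited, and after scaling to 18 bacterial RNA controls added at hybridization, all 32 genes were lower on the PP1 array, and the median over all measured genes moved by -0.71 and -0.80. Against that moved median, 11 of the 32 genes lay above and 21 below in both settings, as they did under trimmed-mean scaling. Both settings multiply the PP1 array by another constant, so this count could change only through signals near the floor. Its sameness is therefore no check on direction. The words higher and lower are used throughout in this relative sense.

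**Figure D1:**
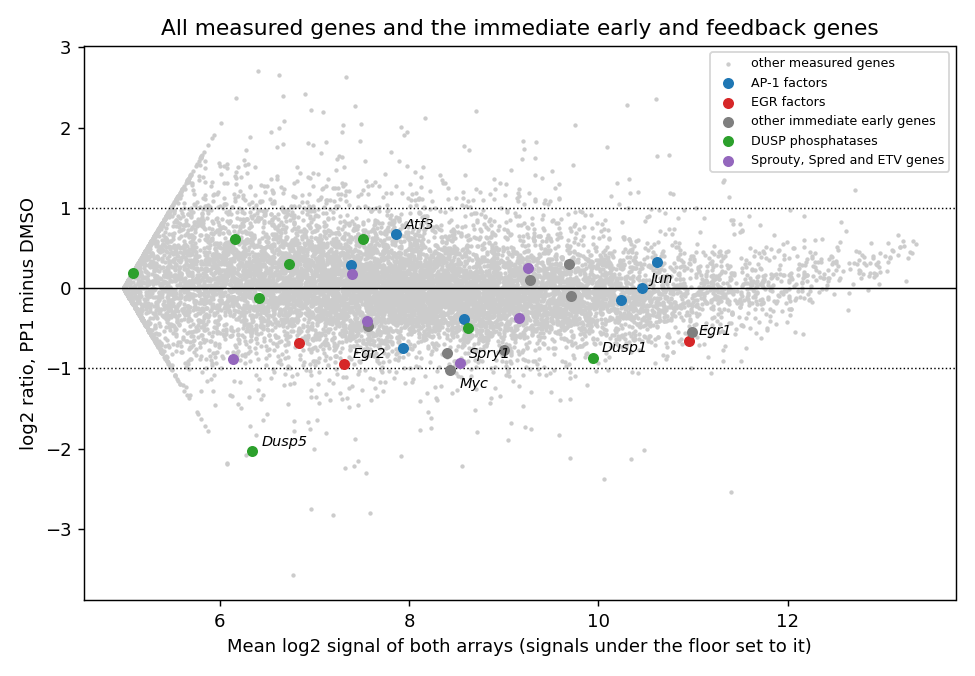
Each grey dot is a measured gene, with the mean log2 signal of both arrays on the horizontal axis and the log2 ratio (PP1 minus DMSO) on the vertical axis, and coloured dots are the 32 immediate early and feedback genes by role. Dotted lines mark 2-fold. Dusp5 lies lowest of the 32 at -2.03 and Atf3 highest at 0.67, while Jun sits at 0.00 among the bulk of genes.

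The upstream sequences of 3 of the lower genes are shown here because they hold the letter patterns of factors through which such genes are known to be induced. Windows of 250 bases before the transcription start were taken from RefSeq (GRCm38.p6) for the 25 of 35 genes with an entry, and each was searched on both strands. The patterns were the CArG box, to which SRF binds, the cyclic AMP response element (CRE, TGACGTCA), the AP-1 site (TGANTCA), a common ETS site (CCGGAAG) and the EGR site (GCGNGGGCG). No spelled pattern contains another. The capitals below mark the CArG boxes of Dusp5 and Egr2 and the CRE of Dusp1, and each sequence runs 5′ to 3′ on the gene's own strand.
Dusp5, chr19:53528895-53529144, plus strand: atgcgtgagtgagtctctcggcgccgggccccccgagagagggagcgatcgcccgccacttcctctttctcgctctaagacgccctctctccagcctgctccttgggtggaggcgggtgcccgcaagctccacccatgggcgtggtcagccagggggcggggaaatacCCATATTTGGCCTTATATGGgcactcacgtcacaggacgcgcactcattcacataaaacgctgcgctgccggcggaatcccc
Egr2, chr10:67537619-67537868, plus strand: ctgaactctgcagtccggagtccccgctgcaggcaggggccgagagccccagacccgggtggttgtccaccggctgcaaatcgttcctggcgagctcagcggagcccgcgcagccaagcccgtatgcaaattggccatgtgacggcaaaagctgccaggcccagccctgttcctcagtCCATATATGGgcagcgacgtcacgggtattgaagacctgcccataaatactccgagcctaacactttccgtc
Dusp1, chr17:26508473-26508722, minus strand: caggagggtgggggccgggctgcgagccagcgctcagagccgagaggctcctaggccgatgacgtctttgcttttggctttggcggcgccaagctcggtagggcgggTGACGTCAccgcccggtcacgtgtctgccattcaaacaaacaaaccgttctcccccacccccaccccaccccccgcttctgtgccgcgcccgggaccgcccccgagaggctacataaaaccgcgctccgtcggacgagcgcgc

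The window of Dusp5 held 2 CArG boxes side by side, from 82 to 73 and from 72 to 63 bases before the start. Egr2 has 5 annotated windows, in which CArG boxes lay at 2 different positions, 1 of them in the window shown. No other gene of the 25 had a CArG box in its window, and over all 32851 windows of this length 1.47% held one. The lower genes Egr1, Egr3, Myc, Fosl1, Ier2 and Spry4 had no entry and were not searched, nor were bases farther upstream. Whether CArG boxes are more common in the lower genes was therefore not tested. The CRE of Dusp1, a gene known to respond to cyclic AMP, lay from 143 to 136 bases before the start. It was the only CRE among the 25 genes, and 1.55% of all windows held one. An EGR site was found for Dusp2, Fosb, Fosl2 and Klf4, 4 of 25 genes, against 4.70% of all windows. The AP-1 and ETS patterns were in none of the 25, against 6.75% and 6.91% of all windows. A match is a run of letters and not a measured binding site.

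The EGR genes encode zinc finger transcription factors that relay growth factor signals to later genes. All 3 of them were at least 1.5-fold lower with PP1, with a group median of -0.68. Egr1, the member best known as a read-out of ERK activity, had a signal of 1586 with PP1, against 2498 with DMSO, a log2 ratio of -0.66. Egr2 had 114 with PP1, against 220 with DMSO, a ratio of -0.94. Its dimmer probe set went the other way, with 99.0 against 86.6 and a ratio of 0.19. Egr3, a close relative of Egr1 that is induced with it, had 90.6 with PP1, against 145 with DMSO, a ratio of -0.68. The direction for Egr1 and Egr3 rests on 1 probe set above the floor each.

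AP-1 is a dimer of FOS, JUN and ATF family proteins, and its subunits did not share a direction. The median over the 7 measured genes of this group was 0.00. Among FOS proteins, Fosl1 (FRA1), which lies downstream of ERK and regulates bone matrix production in mice, had 188 with PP1, against 317 with DMSO, a log2 ratio of -0.75. Fos itself had 336 with PP1, against 437 with DMSO, a ratio of -0.38, about the size of the SD between bright probe sets. Fosl2 (FRA2), which is known to act in osteoblast differentiation, had 1144 with PP1, against 1273 with DMSO, and its 2 probe sets gave -0.15 and -0.11. The FOS genes thus ran downward in order from Fosl2 through Fos to Fosl1, and the neighbours in this order lie within the SD of each other.

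Among JUN proteins, Jun had 1406 with PP1, against 1404 with DMSO, and its 2 probe sets gave 0.00 and -0.03. Both probe sets thus placed Jun at the middle of all genes. Junb, which promotes osteoblast growth in mice, had 184 with PP1, against 151 with DMSO, a ratio of 0.28. Jund, a broadly expressed subunit that opposes growth in many cells, had 1761 with PP1, against 1408 with DMSO, a ratio of 0.32. Atf3, a stress-induced member of the ATF family, was the highest of all 32 genes. It had 294 with PP1, against 184 with DMSO, a ratio of 0.67.

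Of the other immediate early genes, 3 of 8 were at least 1.5-fold lower and none was that much higher, with a group median of -0.51. Myc, the growth-promoting transcription factor, had 244 with PP1, against 493 with DMSO, and at -1.02 its ratio was the second lowest of the 32. Ier2 had 256 with PP1, against 446 with DMSO, a ratio of -0.80. Ier5, an immediate early gene related to Ier2 that acts on heat shock factor HSF1, had 393 with PP1, against 672 with DMSO, a ratio of -0.77. A second Ier5 probe set had 33.4 with PP1 and was under the floor with DMSO, a lower bound of 0.07. By the median over its probe sets, with the median of all genes held in place, Ier5 stood at -0.40. Ier3, a survival gene that ERK phosphorylates at the protein level, did not share this and had 640 with PP1, against 598 with DMSO. Its log2 ratio was 0.10. Phlda1, often counted among ERK output genes, had 917 with PP1, against 747 with DMSO, a ratio of 0.30.

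The Krüppel-like factors of the group lay between. Klf4, a factor of quiescence and differentiation, had 1679 with PP1, against 2452 with DMSO, a ratio of -0.55, but its dimmer probe set gave 0.08. Klf10, a gene first described as induced by TGF-beta in human osteoblasts, had 161 with PP1, against 222 with DMSO, a ratio of -0.47. Klf6 had 808 with PP1, against 869 with DMSO by its brightest probe set, a ratio of -0.10. Its 5 probe sets spread from -0.79 to 0.97, so no direction can be given for Klf6.

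**Figure D2:**
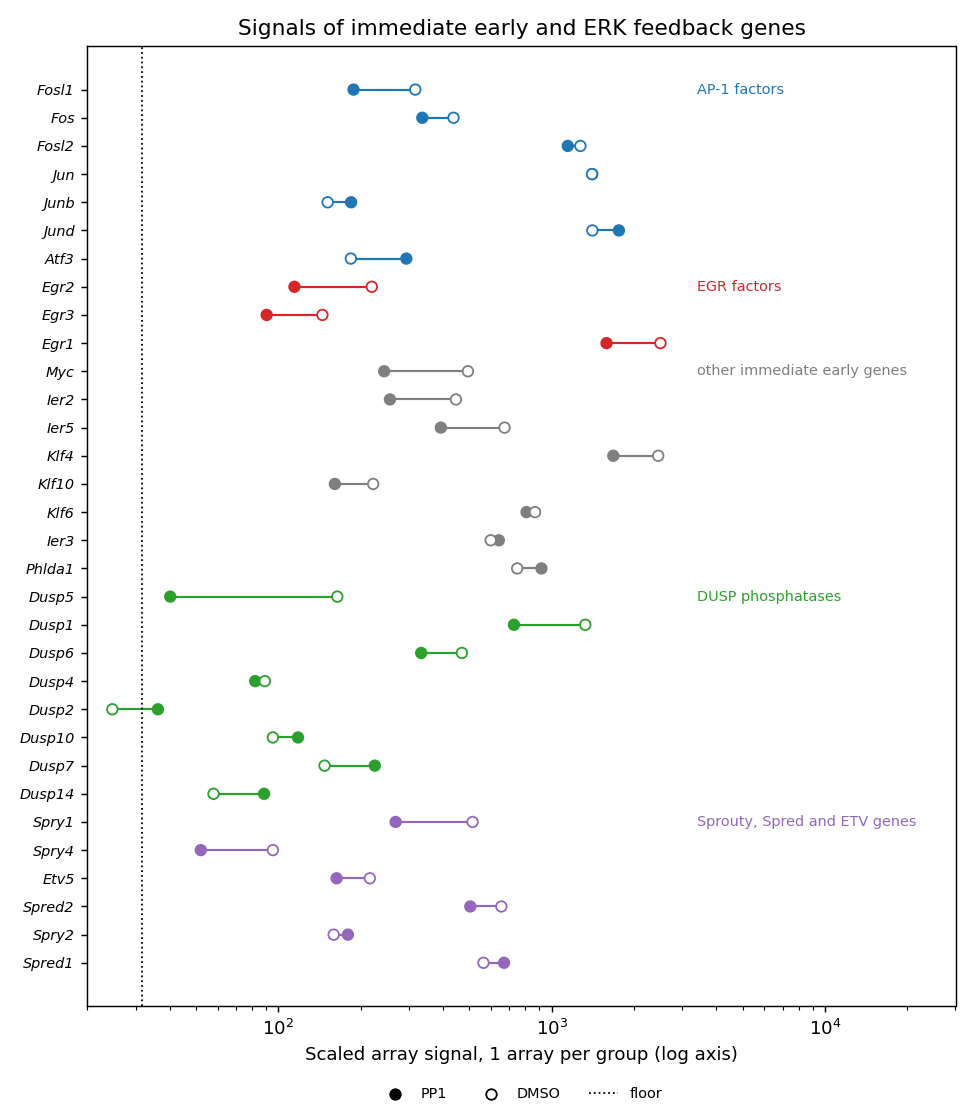
Scaled signals of the 32 measured genes on a log axis, by role and ordered by ratio, with PP1 filled and DMSO open, 1 array each, and the floor dotted. The filled PP1 point lies left of the open DMSO point for all 3 EGR genes, while Jun has both points on top of each other. Signals of different genes come from different probes and cannot be set against each other.

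The DUSP phosphatases spanned nearly the whole range of the 32 genes, with a median of 0.04 and 4 genes on each side of 0. Dusp5, a nuclear phosphatase specific for ERK, had 40.2 with PP1, against 164 with DMSO. This is 4.09-fold lower, a log2 ratio of -2.03, and the 18th lowest of 12111 measured genes. The PP1 signal was close to the floor of 31.7, and Dusp5 rests on 1 probe set, so the size is imprecise. Dusp1, the nuclear phosphatase that acts mainly on p38 and JNK, had 727 with PP1, against 1326 with DMSO, a ratio of -0.87.

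Dusp6, the cytoplasmic phosphatase specific for ERK, had 333 with PP1, against 469 with DMSO. Its ratio was -0.49, which is 1.41-fold lower and larger than the SD between probe sets, which holds no spread between cultures. Dusp4, a nuclear relative of Dusp1 and a common ERK output gene, had 82.2 with PP1, against 89.2 with DMSO, a ratio of -0.12. Dusp4 thus lay near the bulk of genes. Dusp7, like Dusp6 cytoplasmic and directed at ERK, had 225 with PP1, against 148 with DMSO, a ratio of 0.61. Its other 2 probe sets gave 0.92 and -0.07. The phosphatases directed at ERK, Dusp5, Dusp6 and Dusp7, thus had ratios of -2.03, -0.49 and 0.61.

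Dusp14, a small phosphatase known from T cell signalling, had 88.6 with PP1, against 57.9 with DMSO, a ratio of 0.62. Dusp10, which acts on JNK and p38, had 118 with PP1, against 95.4 with DMSO, a ratio of 0.31. Its other probe set was at the floor with DMSO and gave a lower bound of 0.94. Dusp2, known from immune cells, had 36.2 with PP1 and was under the floor with DMSO, so its ratio of 0.19 is a lower bound near the floor.

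The Sprouty, Spred and ETV genes had a median of -0.39 over 6 measured genes. Spry1, an inhibitor of growth factor signalling upstream of ERK, had 268 with PP1, against 513 with DMSO, a ratio of -0.94 from 1 probe set. Spry4 had 52.0 with PP1, against 95.5 with DMSO, a ratio of -0.88. A second Spry4 probe set of like signal gave only -0.09, with 54.2 against 57.8. Spry2, the most studied Sprouty gene, had 180 with PP1, against 159 with DMSO, a ratio of 0.17. Spry1 and Spry2 thus lay on opposite sides of 0.

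Spred1, the Spred gene mutated in human Legius syndrome, had 669 with PP1, against 562 with DMSO, a ratio of 0.25. Over the 6 of its probe sets that exceeded the floor on each array, ratios ran from -0.03 to 0.77. Spred2 had 503 with PP1, against 654 with DMSO, a ratio of -0.38. Its 2 dimmer probe sets gave 0.48 and 0.79, so the direction depends on the probe set. Etv5, an ETS factor that marks ERK and fibroblast growth factor output, had 163 with PP1, against 216 with DMSO, a ratio of -0.40. A dimmer Etv5 probe set gave 0.36, and the third, under the floor with DMSO, gave a lower bound of 1.02.

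**Figure D3:**
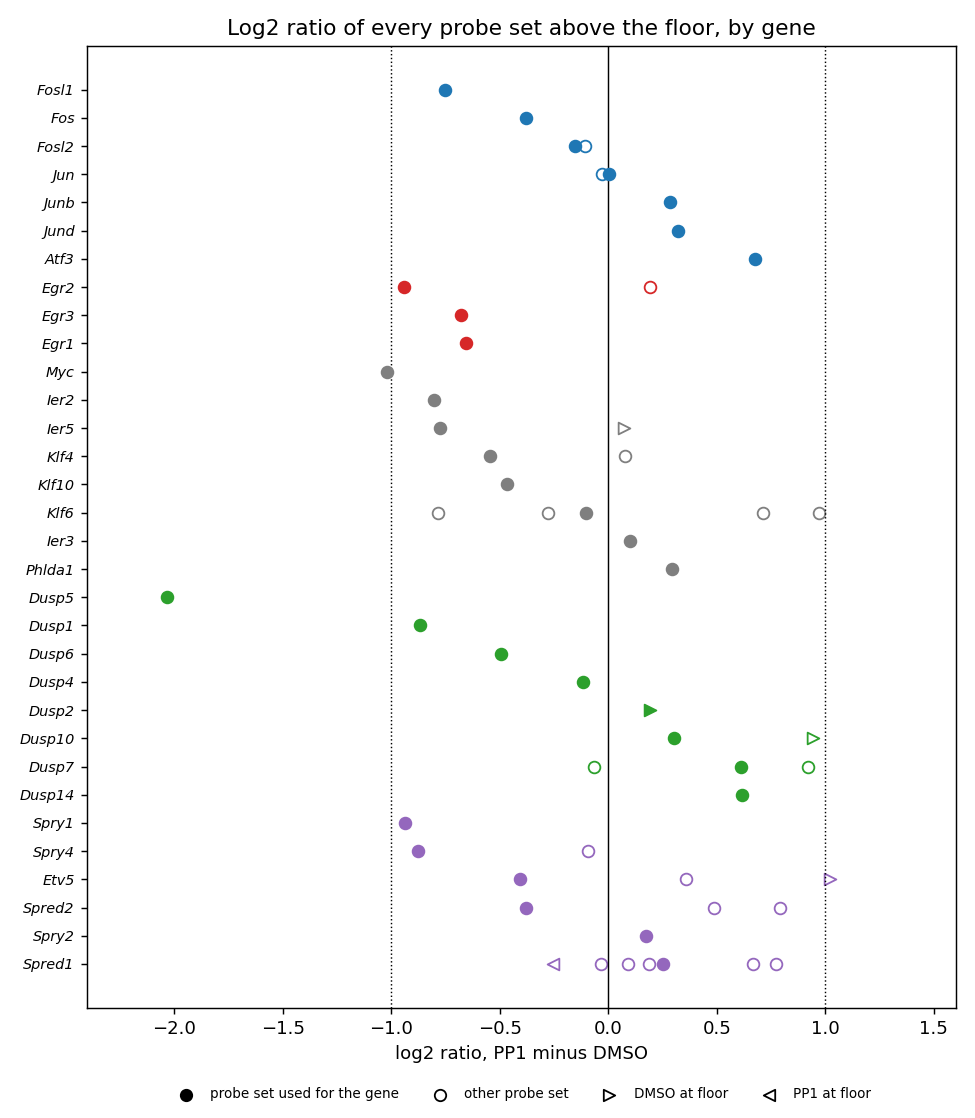
Log2 ratio (PP1 minus DMSO) of every probe set above the floor on at least 1 array, 1 gene a line, filled for the brightest probe set, open for the others, and triangles where 1 array was at the floor. Dotted lines mark 2-fold. Dusp5, Dusp1, Myc and Spry1 have 1 probe set each, while the 5 of Klf6 run from -0.79 to 0.97.

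How far the genes' own probe sets bear out a direction could be checked for 10 genes, those in which at least 2 probe sets exceeded the floor on each array. In 2 of the 10, Fosl2 and Spry4, all of them lay on the same side of 0, against 49.5% of the 4745 genes of this kind. The brightest probe set had a lower ratio than the median of the others in 7 of the 10, and in 63.7% of the 4745. The median gap was -0.47 in the 10 genes and -0.16 in the 4745. With every probe set counted, 12 of the 55 above the floor were at least 1.5-fold lower, against 7.1% of 21219 single-gene probe sets. At least 1.5-fold higher were 11 of the 55, against 13.9%. The median of the 55 was -0.03, beside 0.05 over all 21219. Genes with many probe sets, such as Spred1 and Klf6, weigh more in that count. The 20 genes with a single probe set above the floor had a median of -0.42, with 12 below 0, and the 12 genes with several had -0.27 by their brightest probe set, with 8 below 0. With the median over each gene's probe sets in place of the brightest, and the median of all genes held in place, the median of the 32 was -0.17. In that setting 8 of the 32 were at least 1.5-fold lower and 4 that much higher, against 5.70% and 11.04% of all measured genes. Of the 11 genes at least 1.5-fold lower, 8 rest on a single probe set above the floor. Ier5, Egr2 and Spry4 had more, and in each the other probe set was not 1.5-fold lower (a lower bound of 0.07 for Ier5, 0.19 for Egr2 and -0.09 for Spry4).

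In the cascade that leads to these genes, ratios went both ways. Of 34 measured genes for Ras, RAF, MEK, adaptors and ETS factors, 4 were at least 1.5-fold lower and 5 that much higher, with a median of -0.07. Over all measured genes the shares were 7.37% lower and 10.6% higher, for this list and those that follow. Rasa2 and Rasa1, which switch Ras off, were at -1.10 and -0.72, with signals of 276 against 590 for Rasa2 and 700 against 1151 for Rasa1. Of the 3 probe sets of Rasa1, the highest gave 0.05. Elk4, an SRF partner, was at -0.94 with a second probe set at 0.24, and the Ras relative Mras and the ETV repressor Cic were each at 0.69. Dimmer genes outside the naming rule went higher, with Ksr1 at 1.12 (105 against 48.5) and Elk1 at 0.93 (95.8 against 50.3). Among 20 measured MAPK phosphatases and feedback inhibitors other than the 32, 3 were at least 1.5-fold lower and 2 higher (median -0.13). Rgs4, a regulator of G protein signals, had 246 with PP1, against 701 with DMSO, a ratio of -1.51, whereas its relative Rgs2 was at 0.71. The cytokine signal inhibitor Socs2 was at -0.61 and the EGF receptor inhibitor Errfi1 at -0.52, each with other probe sets above 0. The phosphatase Dusp23 was at 0.55.

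Other early response genes, 36 of them measured, had a median of -0.15, with 7 at least 1.5-fold lower and 2 higher. Bhlhe40, a repressor that also acts in the circadian clock, was at -1.47, with 355 against 983. Ccn1, a secreted matricellular protein, was at -0.99, and its 4 probe sets ran from -1.01 to -0.50. Klf2 was at -0.93, the small MAF factor Mafk at -0.90 and the antiproliferative gene Btg2 at 0.82, with its other probe set at -0.32.

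Genes listed here as delayed ERK and AP-1 targets were lower with PP1 in 21 of 24 measured cases. The name is that of the list, and whether each gene follows with delay was not tested. The median of the 24 was -0.64, with 12 at least 1.5-fold lower and 9 of them at least 2-fold, against 7.37% and 1.55% of all measured genes. At least 1.5-fold higher were 0, against 10.6%. The cyclooxygenase gene Ptgs2 was under the floor on the PP1 array, against a signal of 377 with DMSO, at least 11.9-fold lower. By the second probe set of Ptgs2 the bound was only -0.33. The phosphate transporter Slc20a1 had 710 with PP1, against 2867 with DMSO, a ratio of -2.01. Hbegf, a ligand of the EGF receptor, was at -1.88, with both probe sets below -1. Il6 was at -1.48 and tissue factor (F3) at -1.43, from 1 probe set each. These lists were drawn up by name with earlier results of the same arrays known, so their medians are no independent evidence of a direction.

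**Figure D4:**
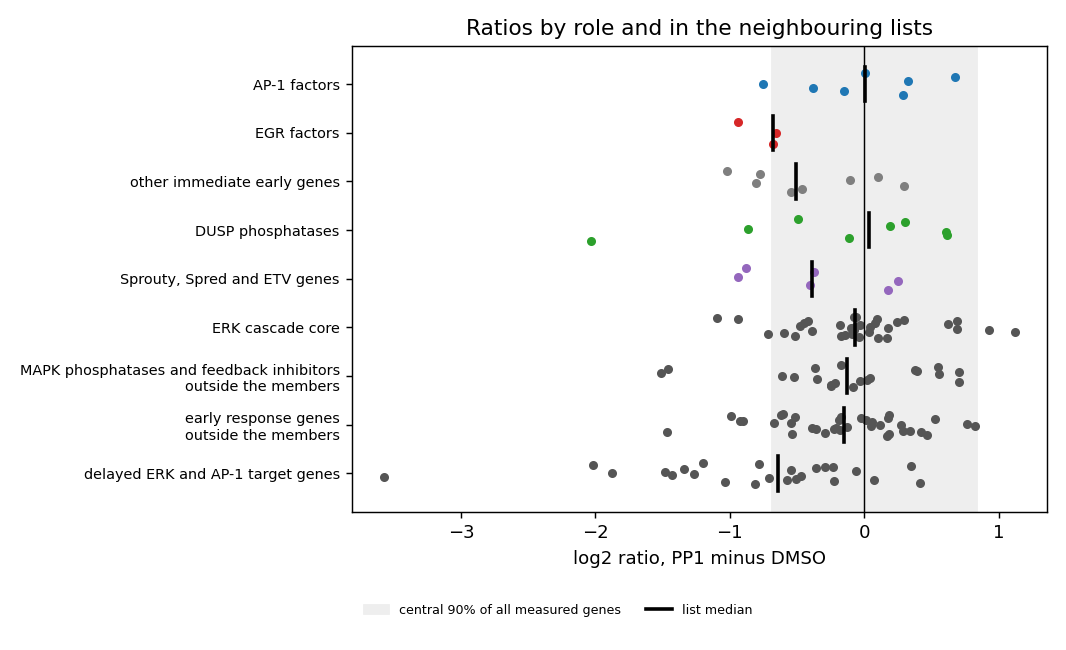
Log2 ratio (PP1 minus DMSO) of every measured gene by role and in 4 neighbouring lists, with a black bar at each list's median and grey for the central 90% of all measured genes, from -0.68 to 0.84. The medians of the EGR genes (-0.68) and of the delayed targets (-0.64) lie farthest left, and the AP-1 and DUSP medians lie near 0.

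**Figure D5:**
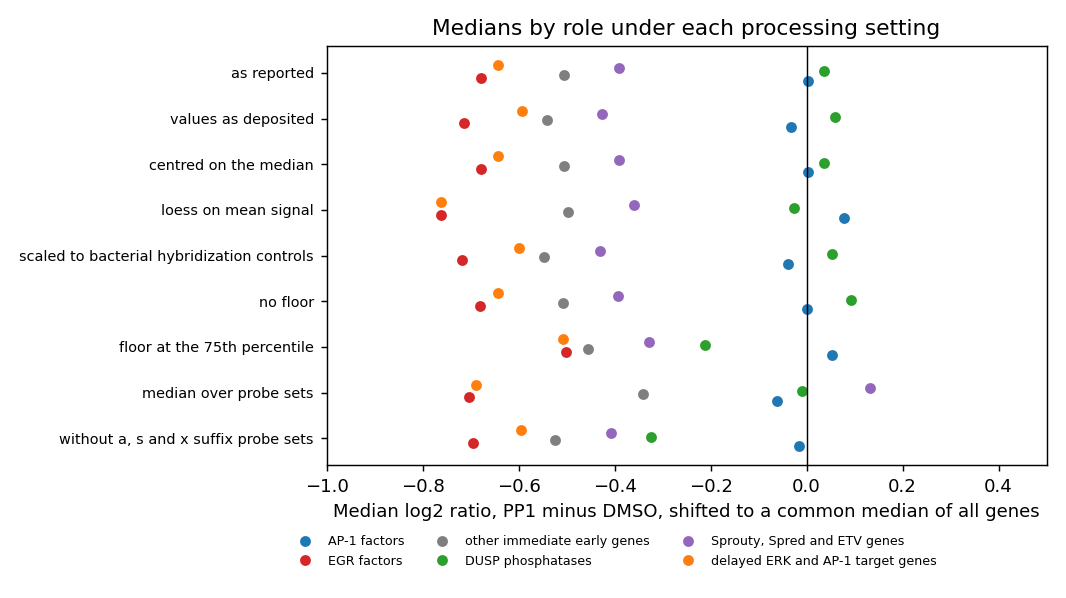
Median log2 ratio (PP1 minus DMSO) of each role group and of the delayed targets under the reported setting and 8 others, each shifted to a common median over all genes. The EGR and delayed medians stay at or below -0.50 in every setting shown, and the Sprouty, Spred and ETV median moves to 0.13 when the median over probe sets is taken. With the floor at the 75th percentile, Egr3 was not measured, and the EGR median of -0.50 rests on Egr1 (-0.61) and Egr2 (-0.40) alone.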

How the data were processed

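Expression was measured with 2 Affymetrix mouse arrays, 1 per group. The deposited values are linear intensity signals per probe set, which the authors made with MAS5, per the submitters' processing notes. Its version and scaling target are not stated there. Gene names come from the platform annotation, brought up to date by gene ID with a RefSeq table of GRCm38.p6 (34741 of 34945 single-gene probe sets matched). From these values were computed the scaling to equal trimmed means, a floor at the median of all non-control signals (31.7), the log2 ratio PP1 minus DMSO, and counts at 1.5-fold and 2-fold. Each gene takes the ratio of its brightest probe set, by mean log2 signal. The genes and lists were chosen with earlier results of these data known. All 35 genes are accounted for, and of each other list the text names up to 5 genes with the largest ratios among those reaching 4 times the floor. Genes outside this rule are named as such. The arrays' number limits the precision, and there is no replicate. The steps were tested on simulated data. Alternatives were 4 scalings, 2 floors, the median over probe sets and leaving out probe sets whose ID has an a, s or x suffix (the array maker's marks for several transcripts of a gene, for common probes and for possible cross-hybridization), which are otherwise used where the annotation gives 1 gene. Work used Python 3.11.15 with pandas 2.3.3, numpy 2.4.6 and statsmodels 0.14.6.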

Additional observations from a re-analysis of the deposited data

Results flagged for a closer look

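Probe sets that the annotation gives to several genes entered no comparison above. Etv1, an ETS factor of the same subfamily as Etv4 and Etv5, had 3 of them, each given to Gm5454 too. The brightest had a scaled signal of 88.1 with PP1, against 36.2 with DMSO, a log2 ratio of 1.28. Another had 61.3 with PP1 and was under the floor with DMSO, a lower bound of 0.95 on the log2 ratio. The third was under the floor on both arrays. Both signals above the floor were dim and higher with PP1 than on the DMSO array. Which of the genes gave the signal was not tested.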

How the results depend on the processing

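Ratios and medians here are shifted to a common median of all genes, and counts are not. Over 8 settings, 98 of 112 counts and medians stayed within 1.5 times the reported count or within the SD between probe sets (0.41) of the reported median, and 239 of 246 ratios of single genes within that SD. That SD is larger than the reported median of the 32 genes (-0.38), so this median could reach 0 and still count as staying. These totals are therefore no measure of how stable the medians are. The values as deposited, the bacterial controls and the centring move all ratios alike. After the shift, ratios and medians in those settings could differ only through signals near the floor, so their sameness is no check. As deposited, 17 of 32 genes were at least 2-fold lower, 22 at least 1.5-fold lower and 0 at least 1.5-fold higher, against 23.4%, 60.6% and 1.19% of all 12291 measured genes. Scaled to the bacterial controls, these counts were 17, 24 and 0, against 30.6%, 66.9% and 0.915% of 12351. Dusp2 stood at 0.71 and 0.76 in those settings. At least 1.5-fold higher was 1 gene after centring on the median, 1 after a loess fit, 1 with the floor at the 75th percentile and 1 without probe sets whose ID carries an a, s or x suffix. The shares of all measured genes were 9.58%, 9.09%, 6.43% and 11.4% in that order. With the floor at the 75th percentile, 1 gene was at least 2-fold lower and 7 at least 1.5-fold lower of 26 measured. The shares of all 7526 measured genes were 1.12% and 6.34%. Dusp5 stood at 0.023 in that setting (its DMSO signal of 164 is close to that floor of 161). Egr2 stood at -0.40 there, and Egr3 was not measured. Without the suffixed probe sets 1 gene of 28 was at least 2-fold lower, against 1.54% of 10469, because the only probe set of Myc, which the annotation gives to Myc alone, ends in the a suffix. With the median over probe sets, the median of the 32 genes was -0.17 in place of -0.38. Of the 32, 8 were at least 1.5-fold lower and 4 that much higher, against 5.70% and 11.04% of all 12111 measured genes. The Sprouty, Spred and ETV median was 0.13 there, and Spred2 stood at 0.44, Etv5 at 0.31 and Egr2 at -0.42. Signals near the floor limit what can be said of Dusp2, Dusp5, Spry4, Dusp14 and Dusp4. No paired analysis was possible because each group is 1 array.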

Other observations

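Some early response genes outside the 32 are known as direct targets of cyclic AMP, stress or cytokine signals, and they are named here after their values were seen. Of the 36 measured genes of that list, 16 lay above 0 and 20 below. Others of the list were lower, such as Plk2 at -0.61, Tnfaip3 at -0.54 and Cebpd at -0.39. Whether ratios differ by the kind of inducing signal was not tested. The orphan nuclear receptor Nr4a1, a classic immediate early gene, had a signal of 321 with PP1, against 318 with DMSO, a log2 ratio of 0.01. Nr4a2 was at 0.17, from signals near the floor (54.8 with PP1 against 48.7 with DMSO). Zfp36 and Zfp36l1, which speed the decay of short-lived transcripts, were at 0.34 and 0.47, and Zfp36l2 at -0.23. The interferon-responsive factor Irf1 was at 0.77, with 490.3 with PP1, against 288 with DMSO. Srf itself had 192 with PP1, against 197 with DMSO, a ratio of -0.03. Of the delayed targets, Ccnd1 (0.07), Emp1 (-0.06) and Mmp13 (0.42), named after their values were seen, did not share the lower values of Ptgs2 and Hbegf.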
